A study of Mus musculus with 6 samples.

Results

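Chemokines are small secreted proteins that draw leukocytes along a gradient, and they act on G protein-coupled receptors on the cells they attract. The signalling receptors steer monocytes, neutrophils, lymphocytes and dendritic cells into tissue, while the atypical receptors bind chemokines and take them up without that response. In the airway, ligands are made by macrophages, dendritic cells and epithelium, and their receptors mark the leukocytes that follow. The genes were chosen by name: the CC, CXC, CX3C and XC ligands and receptors and the atypical chemokine receptors that had a probe set of their own. The eotaxins Ccl11 and Ccl24 and their receptor Ccr3 were left out. This gave 52 of the 19935 genes measured, of which 32 were ligands, 16 signalling receptors and 4 atypical receptors. The probe sets for Ccl21 and Ccl27 are shared between several gene copies and were not used.

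The genes were compared in whole-lung RNA of 3 Scnn1b-Tg and 3 wild-type mouse samples of the C57BL/6 background, on Affymetrix whole-transcript arrays. Scnn1b-Tg mice carry a transgene for Scnn1b, a subunit of the sodium channel ENaC, and the study looked for genes with a part in emphysema. In the published line the transgene is driven by a club cell promoter, so it acts in the airways, but the labels give neither the promoter nor the age or sex of the animals. Whether each sample was a different animal is not stated, and the p-values cover only variation among these 6 samples. Scnn1b had an intensity of 1422 ± 98.3 in Scnn1b-Tg lung, against 139.7 ± 31.9 in wild-type lung (SD, n = 3 each), and it was the only gene past an adjusted p of 0.05 in limma among all genes tested (adjusted p = 0.00241). Markers of alveolar type 2 cells were bright on every array, with a summed intensity over 6 genes of 15865 to 16769 in Scnn1b-Tg and 15067 to 17096 in wild type. The 3 markers of lymph node stroma were all among the 6645 dimmest genes. Scnn1b-Tg replicate 3 and wild type replicate 2 correlated least with the other arrays, and values without them are given for some of the genes whose result they change. In whole lung, more cells of a type and more RNA per cell cannot be told apart.

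None of the 52 members passed the adjusted threshold in limma (0 higher, 0 lower), against 0.00502% of all genes that passed as higher and 0% as lower. At an unadjusted p under 0.05, 13 members were higher and 0 lower, against 3.96% and 2.05% of all genes. For 15 members, all 3 Scnn1b-Tg arrays lay above all 3 wild-type arrays, and for 1 they lay below, against 6.26% and 4.41% of all genes. Ligands and receptors each held some of these, and 36 of the 52 members were higher by any amount, against 53.2% of all genes. Wholly above were 10 of 32 ligands and 5 of 20 receptors. The median log2 fold change, Scnn1b-Tg over wild type throughout, was 0.04 over ligands and 0.03 over receptors, against 0.0052 over all genes tested. Without Scnn1b-Tg replicate 3, 0 members were called, against 0.0251% of all genes called as higher. Ranked by the size of the log2 fold change, the 34 members after the first 18 ranged from -0.11 to 0.11.

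**Figure D1:**
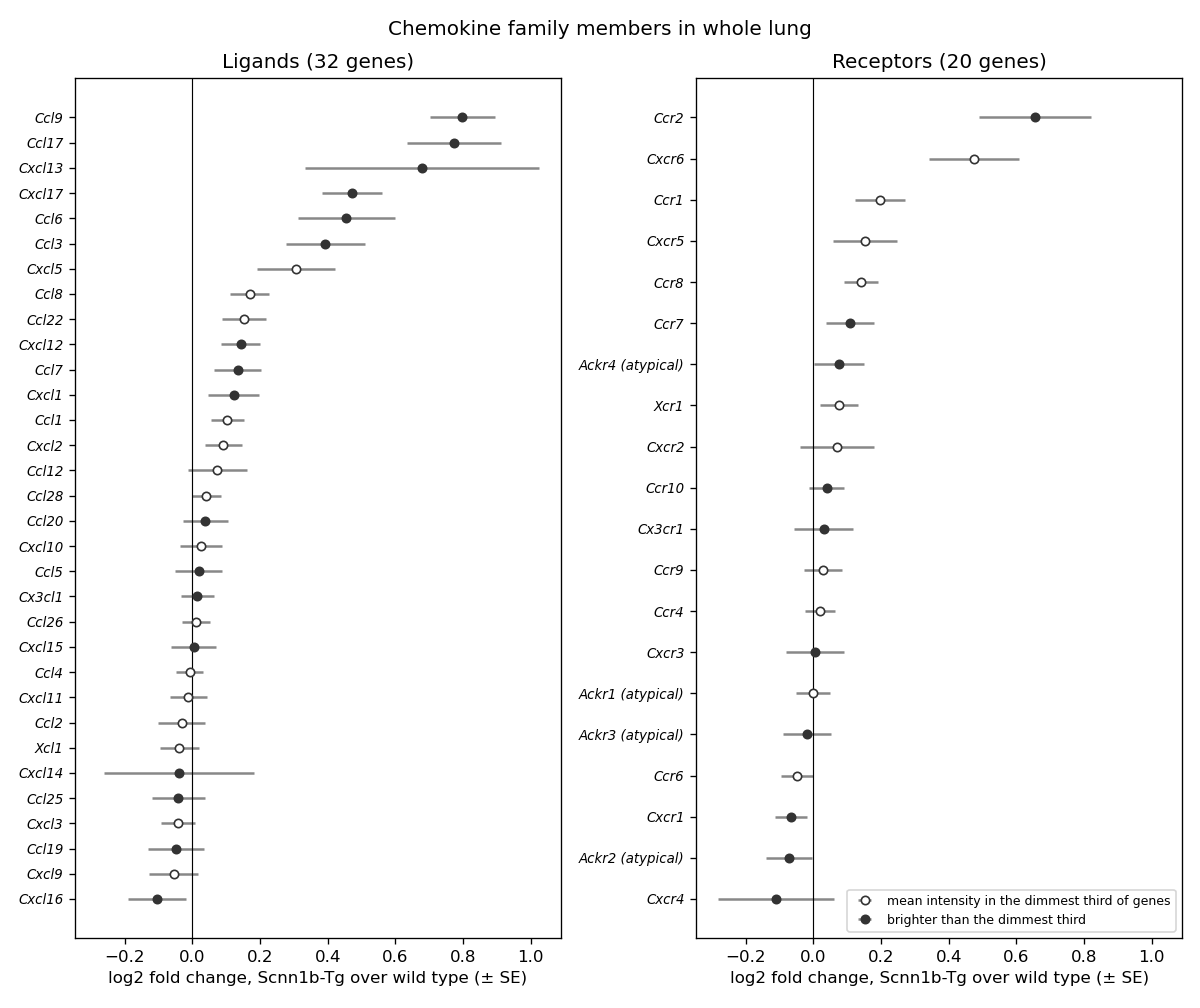
Log2 fold change (x axis, Scnn1b-Tg over wild type, ± SE, 3 arrays each) of the 32 ligands and 20 receptors, sorted by value, with open circles for genes whose mean intensity was among the 6645 dimmest of all genes. Ligand values run from 0.80 for Ccl9 to -0.11 for Cxcl16 and receptor values from 0.66 for Ccr2 to -0.11 for Cxcr4.

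The intensities are on a linear scale with a lowest value of 18.3 to 18.6 per array, and 25 of the 52 members were among the 6645 dimmest genes, at a mean intensity of 35.6 or less. Fold changes of such dim genes are compressed if a constant sits under the signal. With 16 subtracted from every intensity the log2 fold change was 0.93 for Cxcr6 and 0.66 for Cxcl5, against 0.47 and 0.31 as deposited. It was 0.52 for Ccl8, 0.47 for Ccr8 and 0.43 for Ccr1, against 0.17, 0.14 and 0.20 as deposited. Levels of different genes were not set against each other, because each probe set has its own brightness.

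The largest value belonged to a ligand of Ccr1, a receptor of monocytes, macrophages and neutrophils. Ccl9, a macrophage inflammatory protein of mice, had intensities of 106, 109.5 and 91.7 in Scnn1b-Tg lung, against 66.1, 55.2 and 55.5 in wild-type lung. Every Scnn1b-Tg array was above every wild-type array, and wild type replicate 1 was the highest of its genotype. Its log2 fold change was 0.80 ± 0.10 (SE), a fold of 1.74, with an adjusted p of 0.109 in limma. The call depended on the variance model and on the set of genes tested: the adjusted p was 0.00994 with the 6645 dimmest genes left out, where 0.286% of genes passed as higher. A variance prior that follows intensity and is fitted robustly gave 0.0107 (0.181% of genes) and subtracting 16 gave 0.0268 (0.115%). Over single arrays left out the log2 fold change of Ccl9 ran from 0.75 to 0.88. As the member with the largest difference, Ccl9 is shown with the 250 bases before its start (chr11:83578637-83578886, minus strand, GRCm38.p6, RefSeq).
Ccl9: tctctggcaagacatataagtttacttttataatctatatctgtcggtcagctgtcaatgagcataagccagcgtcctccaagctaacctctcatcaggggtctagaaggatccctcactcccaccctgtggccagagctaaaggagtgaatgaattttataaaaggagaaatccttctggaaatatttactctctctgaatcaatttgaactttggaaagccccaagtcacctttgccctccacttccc
This window held neither of the motifs searched. Those motifs, a STAT6 element (TTC and GAA with any 4 bases between) and an NF-κB element (GGGA and TTTCC with any base between), were searched on both strands of the 250 bases before each start.

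Ccl6, a second Ccr1 ligand of mice that macrophages and eosinophils make, had intensities of 805, 659.7 and 528 in Scnn1b-Tg lung, against 512, 471 and 452 in wild-type lung. The genotypes did not overlap, but Scnn1b-Tg replicate 3 lay close to wild type replicate 1. The log2 fold change was 0.45 ± 0.14 (SE, adjusted p = 0.714 in limma), and it was 0.31 without Scnn1b-Tg replicate 1 and 0.61 without Scnn1b-Tg replicate 3. Ccl3, or MIP-1α, which draws macrophages and neutrophils, had 41.8, 52.3 and 44.0 in Scnn1b-Tg lung, against 38.2, 30.1 and 36.9 in wild-type lung. Its genotypes were separate too, with a log2 fold change of 0.39 ± 0.12 (SE, adjusted p = 0.649 in limma), which was 0.29 without wild type replicate 2. The remaining ligands paired with Ccr1 overlapped between genotypes: Ccl7, which draws monocytes, at a log2 fold change of 0.13 ± 0.07 and Ccl5, or RANTES, at 0.02 ± 0.07 (SE). Ccl4, the close relative of Ccl3, lay at -0.01 ± 0.04. Ccr1 itself was dim, with 34.7, 29.8 and 31.0 in Scnn1b-Tg lung, against 29.4, 25.9 and 28.0 in wild-type lung. Its arrays did not overlap, by a narrow margin, and the log2 fold change was 0.20 ± 0.07 (SE, adjusted p = 0.764 in limma).

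Ccl17 and Ccl22 are the ligands of Ccr4, a receptor of type 2 helper and regulatory T cells, and dendritic cells and macrophages make them. Ccl17 had intensities of 69.4, 80.2 and 82.9 in Scnn1b-Tg lung, against 56.2, 40.7 and 40.4 in wild-type lung. The lowest Scnn1b-Tg array lay above the highest wild-type array, which was again replicate 1. The log2 fold change was 0.77 ± 0.14 (SE), a fold of 1.71, with an adjusted p of 0.225 in limma. Dropping the 6645 dimmest genes gave 0.0336, and the robust prior that follows intensity gave 0.0290. Ccl17 is shown with the 250 bases before its start (chr8:94810203-94810452, plus strand, GRCm38.p6, RefSeq). It was the only one of 40 members with a promoter in the table that held the STAT6 element, which is in capitals.
Ccl17: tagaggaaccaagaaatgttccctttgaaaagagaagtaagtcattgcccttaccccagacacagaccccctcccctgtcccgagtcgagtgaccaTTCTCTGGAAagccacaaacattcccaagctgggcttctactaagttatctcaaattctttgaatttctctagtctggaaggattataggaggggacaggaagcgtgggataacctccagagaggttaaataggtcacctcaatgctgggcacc
The first base of the match lay 154 bases before the start. Of all 32851 promoter windows of this length 5.85% held the motif, so a match in 1 of 40 genes is a description and no site was measured.

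Ccl22, the other Ccr4 ligand, had 35.7, 34.8 and 39.5 in Scnn1b-Tg lung, against 31.3, 33.3 and 34.3 in wild-type lung. These groups barely separated, with a log2 fold change of 0.15 ± 0.06 (SE, adjusted p = 0.822 in limma), which was 0.10 without Scnn1b-Tg replicate 3. The receptor Ccr4 lay at 0.02 ± 0.04, with 27.1, 25.6 and 26.9 in Scnn1b-Tg lung, against 26.1, 26.2 and 26.2 in wild-type lung. At these intensities, among the 6645 dimmest genes, its 95% interval ran from -0.08 to 0.12. Ccr8, a second receptor of type 2 helper and regulatory T cells, had a log2 fold change of 0.14 ± 0.05 (SE, adjusted p = 0.757 in limma), with intensities of 25.2, 23.6 and 24.2 in Scnn1b-Tg lung and 23.1, 21.7 and 21.4 in wild-type lung. Its mouse ligands were also dim: Ccl8 lay at 0.17 ± 0.06, and at 0.11 without Scnn1b-Tg replicate 1, and Ccl1 at 0.10 ± 0.05. Ccr8, Ccl8 and Ccl1 each had separate genotypes, by small margins.

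Ccr2, the receptor that brings inflammatory monocytes out of the bone marrow and into tissue, had the largest log2 fold change among receptors. Its intensities were 93.3, 83.6 and 63.4 in Scnn1b-Tg lung, against 60.4, 46.8 and 44.7 in wild-type lung. The genotypes were separate, although Scnn1b-Tg replicate 3 lay just above wild type replicate 1. The log2 fold change was 0.66 ± 0.17 (SE), a fold of 1.58, with an adjusted p of 0.490 in limma. It was 0.54 without Scnn1b-Tg replicate 1 and 0.82 without Scnn1b-Tg replicate 3. The ligands of Ccr2 lay closer to 0. Ccl2, or MCP-1, lay at -0.03 ± 0.07 (95% interval -0.19 to 0.13), Ccl12 at 0.07 ± 0.09 and Ccl7 at 0.13 ± 0.07. All 3 overlapped between genotypes. Ccl2 and Ccl12 were among the 6645 dimmest genes, where fold changes may be compressed, and Ccr2 was not. With 16 subtracted the log2 fold change was -0.06 for Ccl2, 0.18 for Ccl12, 0.24 for Ccl7 and 0.89 for Ccr2. Whether Ccr2 differed from its ligands was not tested.

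Cxcr6, a receptor of tissue-resident T cells and natural killer T cells, had intensities of 44.99, 39.6 and 30.5 in Scnn1b-Tg lung, against 28.5, 27.2 and 26.1 in wild-type lung. The genotypes did not overlap, and Scnn1b-Tg replicate 3 was again the lowest of its genotype. The log2 fold change was 0.47 ± 0.13 (SE, adjusted p = 0.589 in limma), and it was 0.35 without Scnn1b-Tg replicate 1 and 0.63 without Scnn1b-Tg replicate 3. Cxcl16, its ligand, which is made as a membrane-bound protein, pointed the other way at -0.11 ± 0.09, with overlapping genotypes.

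**Figure D2:**
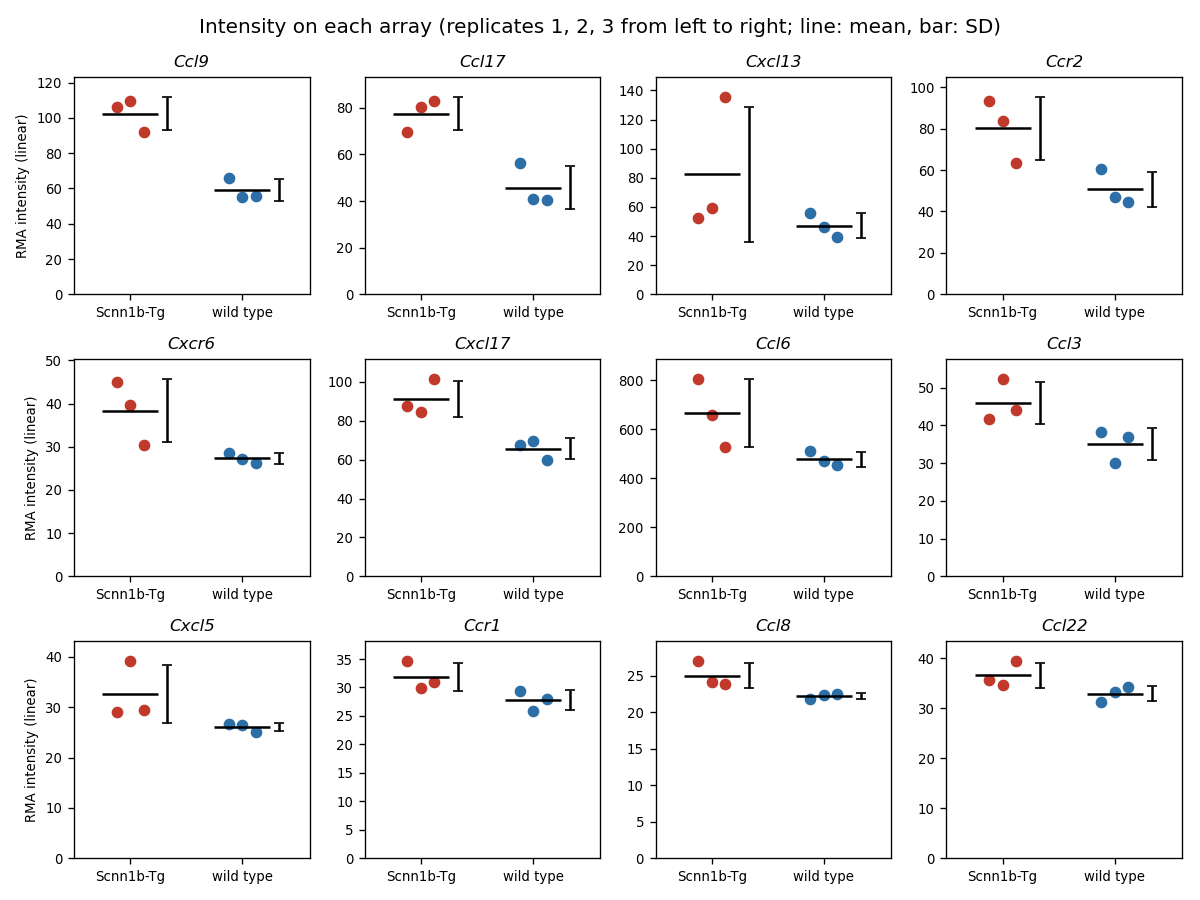
RMA intensity (y axis, linear, from 0) on each array of the first 12 members by size of log2 fold change, Scnn1b-Tg in red and wild type in blue, with the mean as a line and the SD as a bar. All genes but Cxcl13 have every Scnn1b-Tg array above every wild-type array, and Cxcl13 has 1 Scnn1b-Tg array at 136 with the others at 52.4 and 58.9.

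The ligands of Cxcr2, which draws neutrophils, gave small values apart from Cxcl5, a product of lung epithelium. Cxcl5 had intensities of 29.1, 39.2 and 29.4 in Scnn1b-Tg lung, against 26.6, 26.6 and 25.2 in wild-type lung. The arrays did not overlap, but Scnn1b-Tg replicate 2 carried most of the difference. The log2 fold change was 0.31 ± 0.11 (SE, adjusted p = 0.764 in limma), and it was 0.16 without Scnn1b-Tg replicate 2. Cxcl1, or KC, lay at 0.12 ± 0.08 (0.06 without Scnn1b-Tg replicate 2), Cxcl2, or MIP-2, at 0.09 ± 0.05 and Cxcl3 at -0.04 ± 0.05, and all overlapped between genotypes. Their promoters are shown because Cxcl1, Cxcl2 and Cxcl3 were the 3 of 40 members whose 250 bases before the start held the NF-κB element. That was 3 of 42 member windows, against 0.356% of all windows. The 60 bases around the match, in capitals, come from RefSeq (GRCm38.p6), at chr5:90891149-90891208, plus strand for Cxcl1, at chr5:90903777-90903836, plus strand for Cxcl2 and at chr5:90786003-90786062, plus strand for Cxcl3.
Cxcl1: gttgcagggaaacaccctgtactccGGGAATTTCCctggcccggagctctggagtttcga
Cxcl2: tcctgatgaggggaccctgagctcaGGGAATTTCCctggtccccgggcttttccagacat
Cxcl3: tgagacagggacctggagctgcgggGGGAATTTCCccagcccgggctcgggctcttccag
The match read GGGAATTTCC in each, with its first base 71, 97 and 73 bases before the starts of Cxcl1, Cxcl2 and Cxcl3. The 3 genes lie in 1 cluster of chromosome 5, so their matches are a description and no site was measured. All 3 genes with these letters overlapped between genotypes on these arrays, as did 17808 of the 19935 genes tested.

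Cxcr2 itself had intensities of 33.2, 34.996 and 40.7 in Scnn1b-Tg lung, against 39.8, 32.5 and 31.7 in wild-type lung. The groups overlapped widely, with a log2 fold change of 0.07 ± 0.11 (SE). It turned to -0.02 without Scnn1b-Tg replicate 3 and to -0.06 with wild type replicate 2 left out as well. Cxcr1, its neighbour and relative, was the 1 member with all Scnn1b-Tg arrays below all wild-type arrays, by a narrow margin and a log2 fold change of -0.07 ± 0.05 (SE, adjusted p = 0.927 in limma). Cxcl15, or lungkine, which mouse lung epithelium secretes, had a mean intensity of 2534 ± 150.3 in Scnn1b-Tg lung and 2528 ± 161 in wild-type lung (SD, n = 3 each). Its log2 fold change was 0.0036 with a 95% interval of -0.16 to 0.16.

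The interferon-induced ligands Cxcl9, Cxcl10 and Cxcl11 and their receptor Cxcr3, which attract type 1 helper T cells, lay near 0. Their log2 fold changes were -0.06 ± 0.07, 0.03 ± 0.06 and -0.01 ± 0.05 for the ligands and 0.0040 ± 0.09 for the receptor (SE). All 4 overlapped between genotypes, as did 17808 of the 19935 genes tested. The 3 ligands were among the 6645 dimmest genes. The widest 95% interval of the 4 genes, that of Cxcr3, ran from -0.20 to 0.21.

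Among chemokines that place lymphocytes in tissue, Cxcl13, the B cell attractant of lymphoid follicles, had intensities of 52.4, 58.9 and 136 in Scnn1b-Tg lung, against 56.1, 45.9 and 39.6 in wild-type lung. Scnn1b-Tg replicate 3 alone was high, and the remaining arrays overlapped. The log2 fold change of 0.68 ± 0.35 (SE, adjusted p = 0.872 in limma) was 0.25 without that array. Cxcr5, its receptor, had 33.6, 31.3 and 36.4 in Scnn1b-Tg lung, against 27.8, 29.0 and 34.5 in wild-type lung, and replicate 3 was the highest of each genotype. Its log2 fold change was 0.15 ± 0.09, and leaving out 1 array moved it between 0.09 (wild type replicate 1) and 0.25 (wild type replicate 3). The summed intensity of 4 B cell markers overlapped between genotypes, at 316 to 412 in Scnn1b-Tg and 244 to 397 in wild type, and it was 339 on Scnn1b-Tg replicate 3. Ccr7, the lymph node homing receptor, lay at 0.11 ± 0.07, and at 0.03 without wild type replicate 2, and its ligand Ccl19 at -0.05 ± 0.08. Ccl19 has 5 probe sets in near-identical gene copies, whose log2 fold changes ran from -0.05 to -0.03, so its value may mix gene copies.

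Cxcl12, the stromal ligand that holds leukocytes and progenitors in place, had intensities of 202, 198 and 207 in Scnn1b-Tg lung, against 189.5, 169.6 and 191 in wild-type lung. The genotypes were separate by a log2 fold change of 0.14 ± 0.06 (SE, adjusted p = 0.817 in limma), which was 0.09 without wild type replicate 2 and 0.07 without that array and Scnn1b-Tg replicate 3. Cxcr4, its receptor, had 1089, 1046 and 693 in Scnn1b-Tg lung, against 966, 931 and 1104 in wild-type lung. Scnn1b-Tg replicate 3 was the lowest of all arrays, and the log2 fold change of -0.11 ± 0.17 turned to 0.10 without it. Cxcl17, a chemokine of mucosal epithelium that attracts macrophages, had 87.8, 84.4 and 102 in Scnn1b-Tg lung, against 67.7, 69.7 and 59.8 in wild-type lung. Its genotypes were clearly apart, with a log2 fold change of 0.47 ± 0.09 (SE, adjusted p = 0.254 in limma). The adjusted p of Cxcl17 ran from 0.0766 to 0.686 over 16 alternatives. Cxcl14, an epithelial and stromal chemokine, spread most within wild type, at 190.4, 180.2 and 209 in Scnn1b-Tg lung, against 136, 262 and 218 in wild-type lung. Its log2 fold change of -0.04 ± 0.22 was -0.31 without wild type replicate 1 and turned to 0.16 without wild type replicate 2. The fractalkine pair, Cx3cl1 and Cx3cr1, which serves patrolling monocytes, lay at 0.01 ± 0.05 and 0.03 ± 0.09. Xcl1 and Xcr1, which link natural killer cells and T cells to cross-presenting dendritic cells, lay at -0.04 ± 0.06 and 0.08 ± 0.06.

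The 4 atypical receptors overlapped between genotypes, as did 17808 of the 19935 genes tested. Ackr2, the scavenger of inflammatory CC chemokines, had 147, 167 and 143 in Scnn1b-Tg lung, against 156, 158 and 166 in wild-type lung, a log2 fold change of -0.07 ± 0.07 (SE). Ackr4, which takes up Ccl19, Ccl21 and Ccl25, lay at 0.08 ± 0.07, Ackr3, which binds Cxcl12, at -0.02 ± 0.07, and Ackr1, the Duffy antigen, at -0.0021 ± 0.05.

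Ligands and receptors were set side by side in pairs. Of 45 known mouse pairs 37 had both genes measured, covering 19 receptors and 27 ligands, so that a gene can stand in several pairs. In 5 pairs both genes lay wholly above wild type: Ccr1 with Ccl3, Ccl6 and Ccl9, and Ccr8 with Ccl1 and Ccl8. In 8 pairs only the ligand did, among them Ccr4 with Ccl17 and Ccl22, and in 7 only the receptor, among them Ccr2 with Ccl2, Ccl7 and Ccl12 and Cxcr6 with Cxcl16. In the other 17 pairs neither did. Over all genes 6.26% lay wholly above wild type, a share of single genes and not of pairs. Ccr1, Ccr8, Ccl1 and Ccl8 were among the 6645 dimmest genes, as were Ccr4, Ccl22, Ccl2, Ccl12 and Cxcr6. Whether the genes of a pair differ from each other was not tested.

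**Figure D3:**
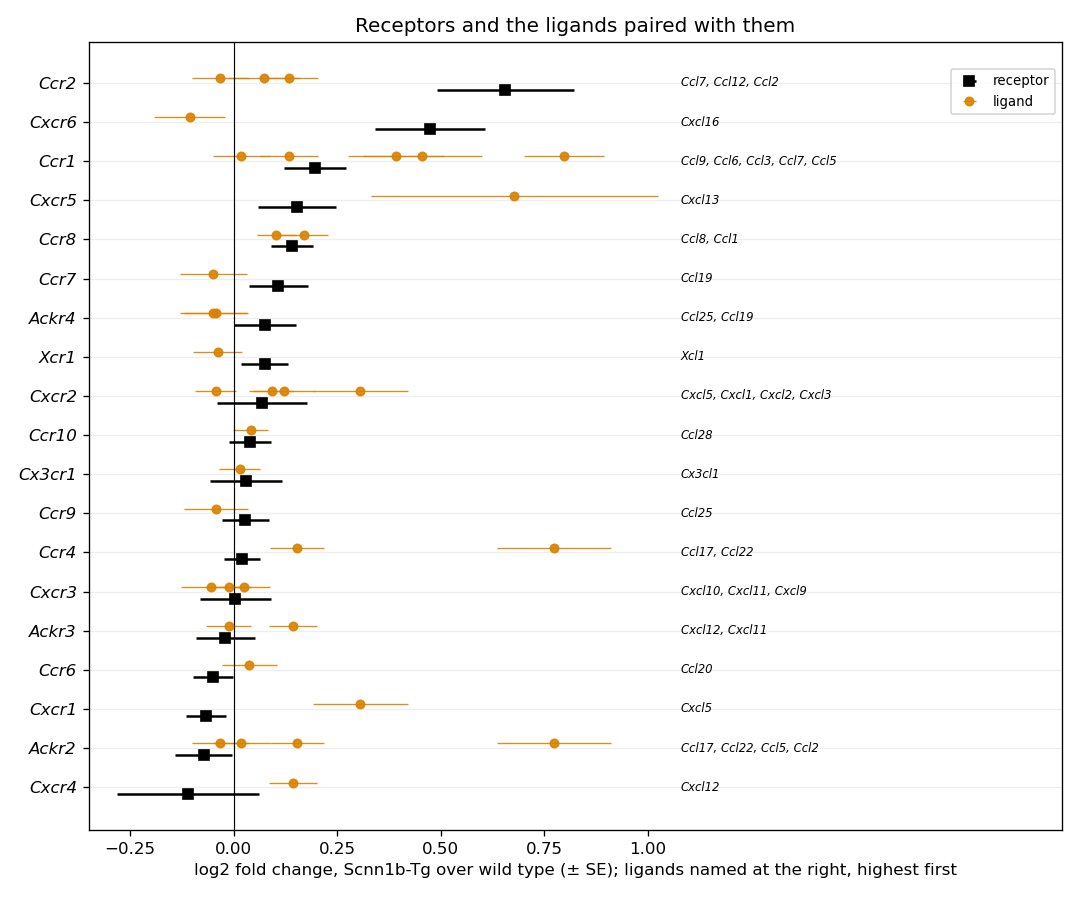
Log2 fold change (x axis, Scnn1b-Tg over wild type, ± SE) of 19 receptors (black squares) and of the ligands paired with each (orange circles, named at the right from highest to lowest). Ccr4 lies at 0.02 beside Ccl17 at 0.77, and Ccr2 at 0.66 beside ligands between -0.03 and 0.13. Ccr4, Ccl2 and Ccl12 are among the 6645 dimmest genes.

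Many of these genes lie in tandem clusters, and values of neighbours could lie apart. On chromosome 11, Ccl9, Ccl6 and Ccl3 stand next to each other at 0.80, 0.45 and 0.39, flanked by Ccl5 at 0.02 and Ccl4 at -0.01. On chromosome 9, the receptor cluster holds Cxcr6 at 0.47, Ccr1 at 0.20 and Ccr2 at 0.66 beside Ccr9 at 0.03 and Xcr1 at 0.08. On chromosome 8, Ccl17 at 0.77 and Ccl22 at 0.15 flank Cx3cl1 at 0.01. The eotaxin axis genes that were not members also have family neighbours. Ccl11, at 0.75 ± 0.12, lies between Ccl7 and Ccl12 in another cluster of chromosome 11, Ccl24, at 0.72 ± 0.07, beside Ccl26 at 0.01 on chromosome 5, and Ccr3, at 1.40 ± 0.32, between Ccr1 and Ccr2 (SE). Of these neighbours Ccl4, Ccr9, Xcr1, Ccl12 and Ccl26 were among the 6645 dimmest genes, where fold changes may be compressed. So were Cxcr6, Ccr1 and Ccl22, while Ccl5 and Cx3cl1 were not. Whether neighbours differed from each other was not tested. The order comes from the GRCm38.p6 gene table.

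Genes downstream of the receptors were more often higher than lower, at 27 and 6, against 53.2% higher over all genes. Of 36 genes of receptor signalling and migration 33 were measured, and 0 passed the adjusted threshold in limma in either direction. At an unadjusted p under 0.05, 6 were higher and 0 lower, and 9 lay wholly above and 1 wholly below wild type. Over all genes those shares were 3.96% and 2.05% at that p, and 6.26% and 4.41% for no overlap. The median log2 fold change of the 33 genes was 0.11. Pik3cg, the phosphoinositide 3-kinase that Gβγ activates in leukocytes, had 71.8, 85.1 and 78.7 in Scnn1b-Tg lung, against 55.8, 52.3 and 56.7 in wild-type lung. Its log2 fold change was 0.51 ± 0.07 (SE, adjusted p = 0.146 in limma), and that of Dock2, the Rac activator of migrating leukocytes, was 0.45 ± 0.07 (adjusted p = 0.151). Both had separate genotypes with margins wider than the spread of either group. The 11 measured genes of 14 chemoattractants and receptors outside the chemokine names had a median of -0.0027, with 0 members at an unadjusted p under 0.05. Their largest absolute values were 0.19 ± 0.52 for Ppbp, a platelet ligand of Cxcr2, and -0.21 ± 0.10 for Hmgb1, a nuclear protein that acts as an alarm signal.

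Of 18 cytokines that induce chemokines 0 passed in limma, with 3 higher and 1 lower at an unadjusted p under 0.05, against 3.96% and 2.05% of all genes, and a median of 0.06. Il1b, the inflammasome cytokine, lay at 0.20 ± 0.08, with overlapping genotypes. Csf3, the neutrophil growth factor, lay wholly below wild type at -0.18 ± 0.07 (SE). Csf1, at 0.14 ± 0.04, and Il1a, at 0.12 ± 0.05, lay wholly above. Among the 6645 dimmest genes were 12 of the 18, Csf3 and Il1a included. Of 16 proteases that cut chemokines 0 passed, with 4 higher and 1 lower at an unadjusted p under 0.05, against the same shares of all genes, and a median of -0.0051. Mmp12, the macrophage elastase, had 358, 550.1 and 228 in Scnn1b-Tg lung, against 131, 76.4 and 77.4 in wild-type lung (log2 fold change 1.95 ± 0.34, adjusted p = 0.225 in limma). Ctsk, a cathepsin that degrades collagen, lay at 0.62 ± 0.13.

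Markers of several leukocytes were higher beside the members, and their part in the result was not tested. Over all genes 53.2% were higher, 6.26% lay wholly above wild type and 4.41% wholly below. Of 10 macrophage markers 8 were higher and 6 lay wholly above wild type, with a summed intensity of 6202 to 7545 in Scnn1b-Tg and 5401 to 6158 in wild type. The leading macrophage genes were Chil3 at 1.34 ± 0.19 and Adgre1 at 0.76 ± 0.17, while Marco lay at 0.01 ± 0.12 and Lyz2 at -0.12 ± 0.11. Without Chil3 the macrophage sums overlapped, at 4257 to 4797 in Scnn1b-Tg and 4257 to 5154 in wild type. Lyz2 made up most of those sums, with a mean intensity of 3282 in Scnn1b-Tg and 3569 in wild type. Of the other macrophage markers Itgax, Mrc1, Cd68 and Siglecf also lay wholly above wild type, and Marco, Pparg, Car4 and Lyz2 overlapped. Monocyte markers summed to 605 to 730 in Scnn1b-Tg and 514 to 515 in wild type (6 of 6 higher, 2 wholly above), and dendritic cell markers to 1960 to 2324 in Scnn1b-Tg and 1436 to 1514 in wild type (7 of 8 higher, 4 wholly above). Csf1r and Itgam were the monocyte markers wholly above, while F13a1, Nr4a1, Plac8 and Cd14 overlapped. Of the dendritic cell markers H2-Ab1, H2-Eb1, Cd74 and Itgae lay wholly above, and H2-Ab1, H2-Eb1 and Cd74 made up most of the sum. Flt3, Zbtb46, Clec9a and Cd209a overlapped, at log2 fold changes of 0.21, -0.04, 0.08 and 0.58. Eosinophil markers summed to 294 to 477 in Scnn1b-Tg and 238 to 246 in wild type (6 of 6 higher, 4 wholly above), and neutrophil markers to 649 to 904 in Scnn1b-Tg and 404 to 536 in wild type (6 of 8 higher, 3 wholly above and 1 below). The eosinophil markers wholly above were Ccr3, Prg2, Siglecf and Il5ra, at log2 fold changes of 1.40, 0.41, 0.39 and 0.22. Epx and Ear6 overlapped, at 0.07 and 0.21. Epx and Il5ra were among the 6645 dimmest genes. Without Retnlg, at 1.38 ± 0.35, the neutrophil sums overlapped too, at 343 to 404 in Scnn1b-Tg and 309 to 350.1 in wild type. The neutrophil genes S100a8, S100a9, Csf3r and Mmp8 lay at -0.08, 0.04, 0.01 and -0.12. T and NK cell markers summed to 315 to 326 in Scnn1b-Tg and 274 to 297 in wild type (5 of 8 higher, 2 wholly above). Il7r and Icos were those wholly above, at 0.41 and 0.30. Cd3d, Cd4 and Klrb1c overlapped, as did Cd3e, Cd8a and Ncr1, which lay at -0.03, -0.02 and -0.04. Club cell markers summed to 6908 to 7417 in Scnn1b-Tg and 7678 to 9619 in wild type (4 of 4 lower), and overlapped without Cyp2f2, at 5279 to 5749 in Scnn1b-Tg and 5649 to 7096 in wild type. Markers of heart and pulmonary vein muscle summed to 672 to 956 in Scnn1b-Tg and 964 to 1234 in wild type (4 of 4 lower). The 1 blood marker measured, Alas2, lay wholly below wild type, at 239 to 386 in Scnn1b-Tg and 420 to 438 in wild type. Other sums stayed separate: without Itgam monocyte markers had 476 to 626 in Scnn1b-Tg and 449 to 464 in wild type. In the same order, dendritic cell sums without H2-Ab1 were 1244 to 1405 and 910 to 984. Eosinophil sums without Ccr3 were 220 to 278 and 190 to 197. T and NK sums without Il7r, which still held Icos, were 242 to 245 and 223 to 236. Sums of heart and pulmonary vein muscle without Myl7 were 586 to 834 and 836 to 1063. Macrophages and eosinophils share Siglecf on these lists, and the eosinophil list holds Ccr3. No probe set is at 0 in these values, so a marker cannot be called absent.

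The order of the Scnn1b-Tg arrays differed between members. Ccr2, Cxcr6 and Ccl6 were highest on replicate 1 and lowest on replicate 3, with deviations from the 6-array mean on the log2 scale of 0.57, 0.41 and 0.01 for Ccr2. The eosinophil marker list had the same order, at 0.48, 0.17 and 0.03, and the dendritic cell list was near level on replicates 1 and 2 and lowest on replicate 3, at 0.25, 0.25 and 0.01. The monocyte list did not, at 0.04, 0.06 and 0.35 on replicates 1, 2 and 3. Of the eosinophil markers Ccr3, Prg2, Siglecf and Il5ra fell from replicate 1 to replicate 3. Epx rose instead, at intensities of 25.4, 26.7 and 28.0, and Ear6 was lowest on replicate 2, at 46.8, 31.3 and 41.6. Ccl17, Cxcl13 and Cxcl17 were highest on replicate 3, at 0.49, 1.196 and 0.40. The mean of the macrophage list was even over the Scnn1b-Tg arrays, at 0.17, 0.19 and 0.15, and over the wild-type arrays, at -0.18, -0.14 and -0.19. Single macrophage markers were less even over the Scnn1b-Tg arrays. Adgre1 and Siglecf were highest on replicate 1 and lowest on replicate 3, at intensities of 169, 113 and 106 for Adgre1. Marco, Car4, Mrc1 and Pparg ran the other way, at 43.4, 53.0 and 61.0 for Marco.

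**Figure D4:**
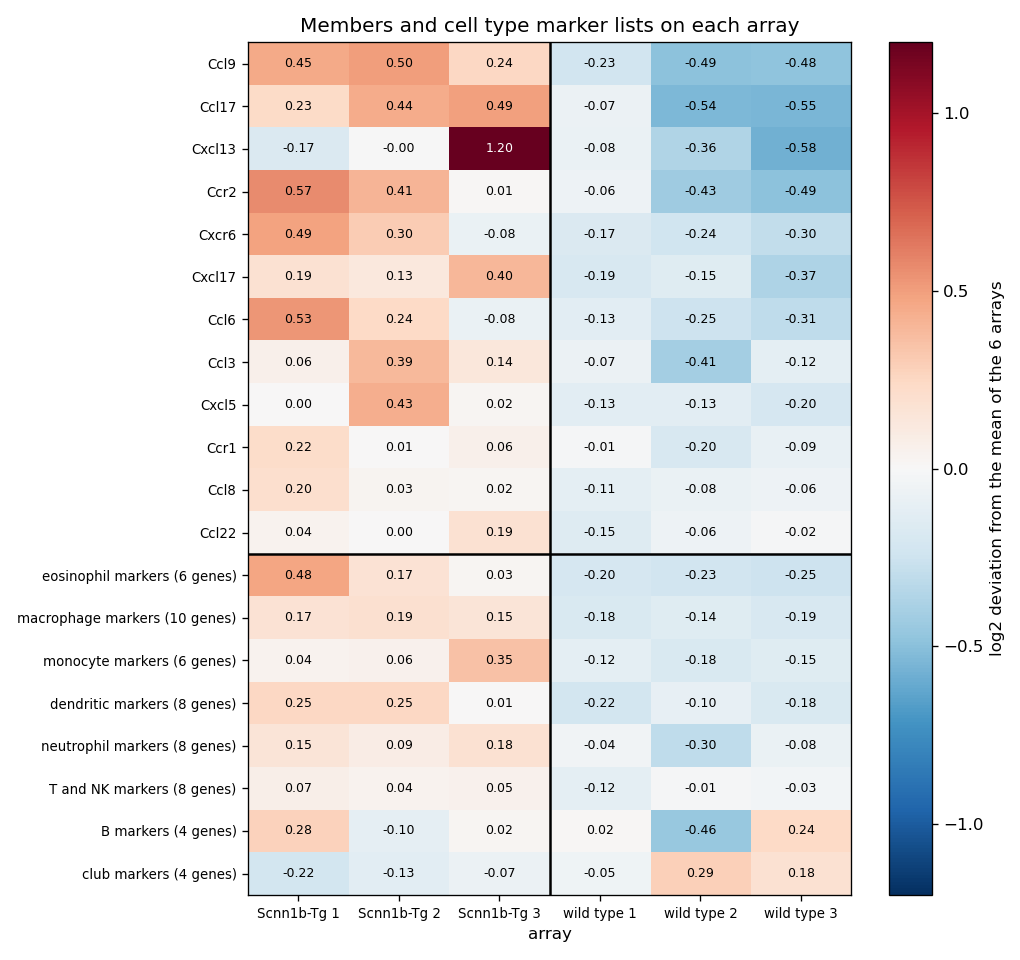
Log2 deviation from the mean of the 6 arrays (colour and printed value) for the first 12 members by size of log2 fold change and for the mean of 8 cell type marker lists, with Scnn1b-Tg arrays left of wild-type arrays. Scnn1b-Tg replicate 3 stands out for Cxcl13 at 1.196 and is near 0 for Ccr2 at 0.01.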

How the data were processed

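Total RNA of mouse lung was labelled and hybridised to Affymetrix whole-transcript arrays, per the labels' protocols. The authors deposited 1 RMA intensity for each probe set and array, per the submitters' processing notes, which name no version or setting. Their range shows a linear scale. Of 28815 probe sets 21780 had exactly 1 symbol, 1605 several and 5430 none, and 21689 matched RefSeq by Entrez identifier, with 0 symbols changed. The brightest probe set per gene was kept, which left 19935 genes. A genotype-only model of log2 intensity was run in limma 3.58.1 under R 4.3.3 (lmFit, then eBayes). Its two-sided p-values were adjusted by Benjamini-Hochberg across the 19935 genes and called under 0.05. The fit was tested on simulated data. Array medians were 47.6 to 48.5, and precision is limited by having 6 arrays.

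Members, lists, pairs and tests were chosen with earlier results of these data known. Members named in full were the first 18 by size of log2 fold change, the partners of the first 12, the 6 brightest and any called, and of each other list the called genes or the 2 largest. Alternatives were quantile normalization, median centring, the 6645 dimmest genes left out, the mean over probe sets, all probe sets, trend with robust variance, array weights, 16 subtracted, a replicate block, each array left out and both arrays that stand apart (Scnn1b-Tg replicate 3 and wild type replicate 2) left out. Same-numbered samples deviated together only weakly (r of 0.0257 to 0.0395), so numbers were not taken as pairs. Differently numbered samples had lower values, at r of -0.0631 to 0.0236. Protein features were planned but no protein sequences were used here.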

Additional observations from a re-analysis of the deposited data

How the results depend on the processing

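Over 16 alternatives the number of members called was 0 in 13 and changed in 3: it was 2 with the 6645 dimmest genes dropped, 2 under the robust prior that follows intensity (Ccl9 and Ccl17 in each) and 1 with 16 subtracted (Ccl9). Higher members at an unadjusted p under 0.05 numbered 7 with the 6645 dimmest genes dropped, where fewer members were tested, and otherwise 9 to 14 outside single arrays left out. With a replicate block 14 were higher at an unadjusted p under 0.05 and 0 called, and the medians were 0.04 for ligands and 0.03 for receptors. The ligand median was 0.0141 with median centring, 0.12 with the 6645 dimmest genes dropped, 0.0858 with 16 subtracted and 0.0637 with both arrays that stand apart left out. The receptor median was 0.0093 with median centring, 0.0558 with array weights and 0.0716 with 16 subtracted. Over single arrays left out, members higher at an unadjusted p under 0.05 numbered 8 to 12 and lower ones 0 to 2 (8 higher without wild type replicate 2 and 2 lower without wild type replicate 1). In the same fits the ligand median ran from 0.0409 to 0.0754 and the receptor median from 0.0312 to 0.0789. Of the first 18 members by size of log2 fold change 17 kept their direction under every alternative that tested them, and Cxcr4 turned to 0.10 without Scnn1b-Tg replicate 3 and 0.05 with both arrays that stand apart left out. Over all 437 comparisons of named genes 19 changed sign, each for a gene that was not called, and 5 became calls. Marker sums without the list's gene of largest absolute log2 fold change were added after seeing the data. Apart from fits that left out arrays or tested fewer genes, the cause of these changes was not tested.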
